A study of Mus musculus with 2 samples.

Results

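The Mir322-Mir503 cluster is a run of 7 microRNA (miRNA) genes on mouse chromosome X: Mir322, Mir503, Mir351, Mir542, Mir450-2, Mir450-1 and Mir450b. Its members were taken as the table rows whose Ensembl identifiers carry these symbols in GENCODE M21, and all 7 were found among 1973 miRNA genes. The data are small-RNA read counts from limb tissue of B6NCrl embryos of both sexes, pooled, at embryonic day 10.5, when the limb is a bud of mesenchyme under an ectodermal cover. There was 1 group of 2 biological replicates, a pool of 69 embryos (replicate 1) and a pool of 51 (replicate 2), with no genetic change or treatment named in the labels. Each pool averages over many embryos, and both pools mix the cell types of the bud. Sense counts in miRNA genes came to 3581672 in replicate 1 and 3576482 in replicate 2, and levels are counts per 1000000 of those totals (CPM). With 2 libraries of 1 group, levels are described as mean ± SD and no p-value is given.

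A primary miRNA transcript is cut into hairpins in the nucleus, each hairpin is cut again in the cytoplasm, and 1 arm of the duplex is loaded into an Argonaute protein. The loaded arm finds its target mRNAs mainly through its seed, the bases from 2 to 8 counted from the 5' end, and lowers their translation and stability. Mir322, whose human counterpart is called MIR424, and Mir503 belong to the broad miR-15/16 family, known for restraining cell-cycle genes such as cyclins and the phosphatase gene Cdc25a, and both are known for promoting the exit of myoblasts from the cell cycle. Mir351 carries the seed of the miR-125 family, miR-542-3p is known for repressing the survival gene Birc5 (survivin), and the Mir450 genes form a small family of their own.

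The mature sequences are shown because the seeds split these neighbours into several targeting groups and because shared sequence decides which reads could be counted. RefSeq (GRCm38.p6) held mature sequences for 7 of 7 members. In the lines below the seed is in capitals, and sequences run 5' to 3'. These are the 5' arms of the members, with the 3' arm for Mir542.
miR-322-5p: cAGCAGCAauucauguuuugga
miR-503-5p: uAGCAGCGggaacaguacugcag
miR-351-5p: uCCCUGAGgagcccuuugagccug
miR-542-3p: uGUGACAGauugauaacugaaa
miR-450a-5p: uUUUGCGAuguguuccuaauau
miR-450b-5p: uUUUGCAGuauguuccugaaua
The miR-322 and miR-503 seeds are the same from base 2 to base 7 and differ at the last seed base by A8G (miR-322 base first, positions from the 5' end). Over 22 aligned bases these neighbours are identical at 11. The seeds of miR-450a-5p and miR-450b-5p differ at G7A and A8G. No other mature sequence in the RefSeq table carries the 7-base seed of miR-503-5p, miR-542-3p or miR-450b-5p.

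Mir450-1 and Mir450-2 both encode miR-450a-5p. Their hairpins share a run of 25 bases that contains it, so a read that lies inside that run fits both loci equally well. Their 3' arms differ, and those of Mir450-1 and Mir450b are close to each other, with 20 of 22 bases identical. The 3 arms are printed because they bear on what could be counted at each locus.
miR-450a-1-3p: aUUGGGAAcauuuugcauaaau
miR-450a-2-3p: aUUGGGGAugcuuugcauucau
miR-450b-3p: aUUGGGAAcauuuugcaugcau
The layout of the deposited tables is that of counting uniquely placed reads. The counts of Mir450-1 and Mir450-2 are therefore uncertain and may be too low. For Mir322, Mir503, Mir351, Mir542 and Mir450b no annotated arm occurs in another RefSeq hairpin, and the longest run that the Mir322 hairpin shares with any other is 11 bases. The Mir322 hairpin is shown with both annotated arms in capitals, the 5' arm first.
Mir322 hairpin: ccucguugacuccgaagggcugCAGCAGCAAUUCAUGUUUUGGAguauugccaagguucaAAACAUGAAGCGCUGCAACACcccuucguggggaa

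The cluster spans 6353 bases of the minus strand of chromosome X (GRCm38, 53047997 to 53054349). In the direction of transcription Mir322 comes first (53054255 to 53054349), followed after 200 bases by Mir503 (53053984 to 53054054) and after a further 630 bases by Mir351 (53053255 to 53053353). Mir542 (53049403 to 53049487) lies 3767 bases beyond Mir351. The 3 Mir450 hairpins stand close together at the 3' end: Mir450-2 (53048299 to 53048367), Mir450-1 (53048154 to 53048244) after 54 bases and Mir450b (53047997 to 53048078) after 75 bases. In GENCODE M21 no other gene spans any of the 7 hairpins. The noncoding RNA gene Gm28730 (53051194 to 53053159) lies between Mir351 and Mir542 on the same strand. The noncoding RNA gene C430049B03Rik ends 696 bases upstream of Mir322, also on that strand. RefSeq draws that gene longer (53053112 to 53057190), so that Mir322, Mir503 and Mir351 lie inside it and Mir542 and the 3 Mir450 hairpins do not. Neither annotation holds 1 gene that covers all members.

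Each library held at least 10 counts of every one of the 7 members, a level of detection that 17.6% of the 1973 genes reached. The cluster took 155395 sense counts in replicate 1 and 217961 in replicate 2. These were 4.34% (95% exact binomial interval 4.32 to 4.36) and 6.09% (6.07 to 6.12) of all sense counts, the higher share in replicate 2. Intervals here and below cover counting error alone, since amplified reads are not independent molecules. Sense and antisense reads were cleanly separated at the cluster, with 1 antisense count at Mir322 in replicate 2 and none elsewhere in it.

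Mir322 carried most of the cluster's reads. It had 126439 counts (35302 CPM) in replicate 1 and 191410 counts (53519 CPM) in replicate 2, ranks 6 and 5 among all genes, with a mean of 44410 ± 12882 CPM (SD, n = 2). Its share of the cluster was 81.4% in replicate 1 and 87.8% in replicate 2. Mir351, the miR-125-like member, was second in both libraries, with 5311 and 4379 CPM, a mean of 4845 ± 659 CPM and 12.2% and 7.19% of the cluster. Without Mir322, the other 6 members together held 0.808% and 0.742% of all sense counts, so by library total the higher cluster share of replicate 2 rested on Mir322.

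Mir503, the nearest neighbour of Mir322 on the transcript, had 1294 and 1491 CPM in replicates 1 and 2 (mean 1392 ± 139). Mir542 had 936 and 988 CPM (mean 962 ± 36.5). Mir450b had 481 and 520 CPM (mean 501 ± 27.6). By library total, these 3 genes differed between the libraries by an SD of at most 9.98% of their mean. That SD was 29.0% for Mir322 and 13.6% for Mir351. The place of Mir351 in this order depends on the scaling. With edgeR's TMM scaling factors the log2 ratio of replicate 2 over replicate 1 was 0.011 for Mir351. It was then 0.49 for Mir503, 0.40 for Mir450b, 0.37 for Mir542 and 0.89 for Mir322.

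The 2 genes that share miR-450a-5p were the lowest. Mir450-1 had 182 counts (50.8 CPM) and 124 counts (34.7 CPM), a mean of 42.7 ± 11.4 CPM. Mir450-2 had 39 and 38 counts (10.9 and 10.6 CPM), a mean of 10.8 ± 0.187 CPM. With so few counts the intervals of Mir450-2 ran from 7.74 to 14.9 CPM and from 7.52 to 14.6 CPM. How many reads of miR-450a-5p were lost to multiple placement was not measured, although multimapping reads made up 32.3% and 31.2% of the mapped reads over the whole libraries.

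**Figure D1:**
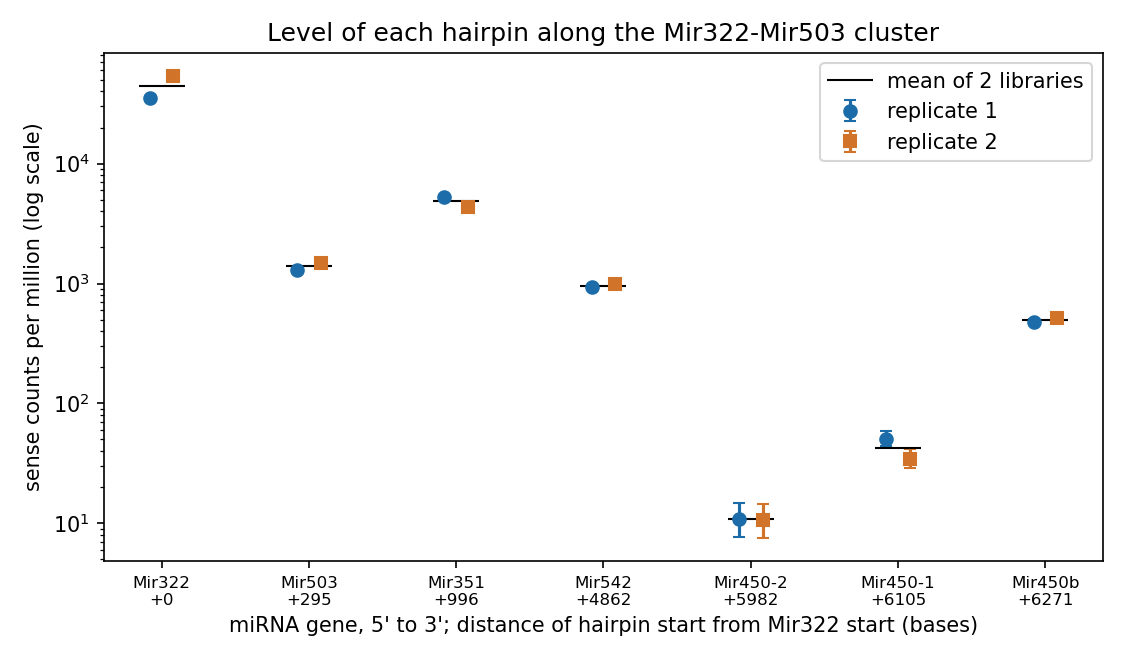
Sense CPM (log scale) of each hairpin in the order of transcription, with the distance of its start from that of Mir322 in bases. Points are the libraries with exact binomial 95% intervals and dashes their means. Mir322 stands highest in both libraries, Mir351 lies above the Mir503 hairpin that precedes it, and Mir450-2 and Mir450-1 lie lowest.

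The order of levels was the same in both libraries: Mir322, Mir351, Mir503, Mir542, Mir450b, Mir450-1, Mir450-2. It was not the order along the DNA. Mir322 was 27.3-fold above Mir503 in replicate 1 and 35.9-fold in replicate 2, although 200 bases separate their hairpins. Going on 3', Mir503 was below Mir351, with log2 ratios of -2.04 (-2.08 to -1.99) and -1.55 (-1.60 to -1.51) in replicates 1 and 2. Mir351 was then 5.67-fold and 4.43-fold above Mir542. At the 3' end Mir542 was 86-fold and 93-fold above Mir450-2, while Mir450b, the last hairpin, was again higher. Mir450-1 was below Mir450b at log2 ratios of -3.24 (-3.47 to -3.02) and -3.91 (-4.18 to -3.64).

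Every neighbouring pair in the order of levels was separated beyond counting error in both libraries. The closest was Mir503 over Mir542, at log2 ratios of 0.47 (0.40 to 0.53) and 0.59 (0.53 to 0.65), a mean of 0.53 ± 0.09 (SD, n = 2). Ratios between genes are ratios of reads, and how evenly the library preparation captured each sequence was not measured. The annotated mature arms of the members are 21 to 24 bases long, and no scaling by length was made.

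Ratios within a library do not depend on scaling, and the balance between members shifted by different amounts. Mir542 over Mir450b was almost equal in the libraries, at log2 ratios of 0.96 (0.88 to 1.04) and 0.93 (0.84 to 1.01). Mir503 over Mir450b was 1.43 (1.35 to 1.51) and 1.52 (1.44 to 1.60), with overlapping intervals. Mir503 over Mir542, given above, shifted by 0.13, with intervals that narrowly did not overlap. The ratio of Mir322 to Mir351, by contrast, went from 6.65-fold to 12.2-fold, a log2 change of 0.88 beyond counting error. Relative to each of the other members Mir322 was higher in replicate 2 than in replicate 1, by 0.40 against Mir503, 0.49 against Mir450b, 0.52 against Mir542, 0.64 against Mir450-2 and 1.15 against Mir450-1 (log2). For Mir450-2 the intervals of the ratio overlapped between the libraries (11.2 to 12.2 and 11.8 to 12.8), so that shift was not resolved at its depth.

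Between the libraries, the log2 ratio of CPM (replicate 2 over replicate 1, prior count of 1) was 0.60 (0.59 to 0.61) for Mir322, a 1.52-fold difference. It was 0.20 (0.15 to 0.26) for Mir503, 0.11 (0.02 to 0.21) for Mir450b and 0.08 (0.01 to 0.15) for Mir542. Mir351 and Mir450-1 were lower in replicate 2, at -0.28 (-0.31 to -0.25) and -0.55 (-0.89 to -0.21). Mir450-2 was at -0.03 (-0.72 to 0.65), an interval that includes 0. These intervals hold counting error alone, and with 1 pool on each side the differences have no replicate check.

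The background sets the scale for those differences. In the 250 genes whose counts averaged 100 or more, the median log2 ratio was -0.27 with an SD of 0.66. Of those genes 1.20% were over 2-fold higher and 9.60% over 2-fold lower in replicate 2, 10.8% in all, and 0 of the 6 members that reached this depth were. The members' median was 0.09, and 4 of 6 lay above the median of all 250 genes, with Mir351 at that median (a difference of -0.0073) and Mir450-1 below it by 0.28. Relative to the median of all genes Mir322 was 0.87 higher, and 94.4% of the 250 genes had a lower ratio. Scaling with edgeR's TMM factors moved the median of all genes by 0.29 and put Mir351 at 0.011 and Mir450-2 at 0.25, so the direction of both depends on the scaling. Mir322, Mir503, Mir542 and Mir450b were higher in replicate 2, and Mir450-1 was lower, under the library total, TMM, DESeq2 and mapped-read scalings.

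**Figure D2:**
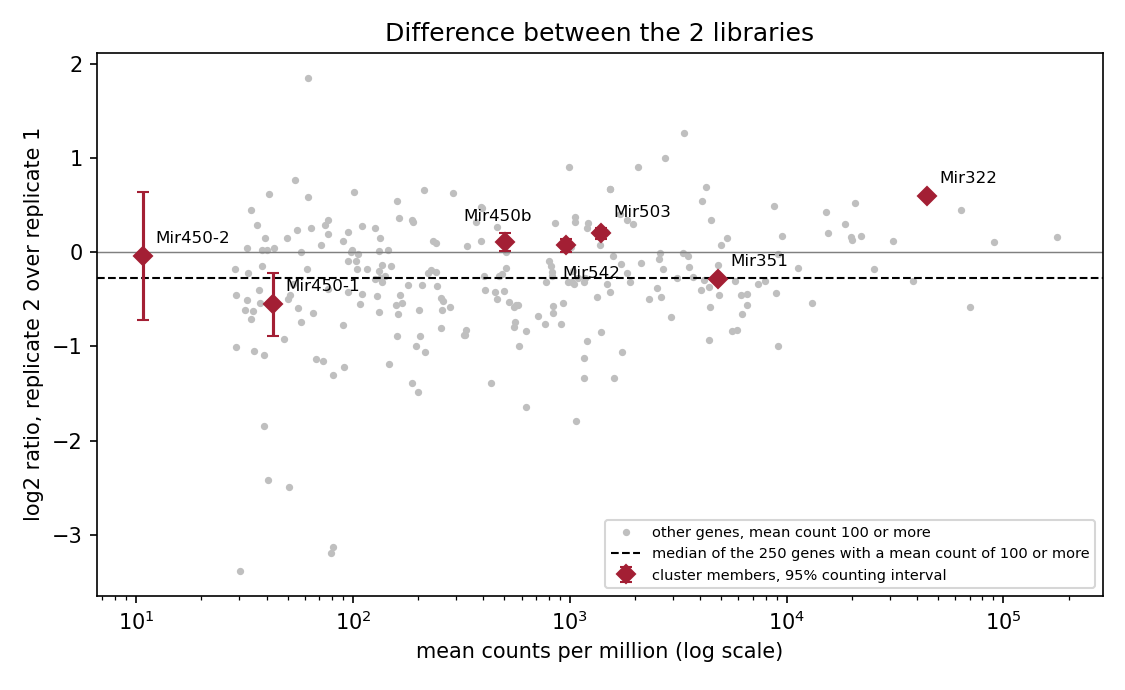
Log2 ratio of CPM, replicate 2 over replicate 1, against mean CPM (log scale). Red diamonds are the 7 members with 95% counting intervals, grey points the other genes with a mean count of at least 100, and the dashed line the median of such genes at -0.27. Mir322 stands highest of the members at 0.60 and Mir450-1 lowest at -0.55.

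Several other measures differed between the pools along with Mir322. Unmapped reads were 32.3% of all reads in replicate 1 and 18.6% in replicate 2. The mesenchyme list (7 of 7 genes detected, led by Mir214) summed to 24188 and 28717 CPM in replicates 1 and 2. Of its genes 6 were higher in replicate 2, and Mir22 was lower (1153 and 680 CPM). The muscle list, of interest because Mir322 and Mir503 are known from myoblasts, summed to 84.0 and 133 CPM with 4 of 8 genes detected, and its skeletal muscle gene Mir206 had 26.8 and 97.9 CPM. Without Mir206 the list had 57.2 and 35.5 CPM, and 2 of its 5 genes with any count (Mir206 and Mir133b) were higher in replicate 2 while 3 were lower. Its members Mir1a-1, Mir133a-1 and Mir133a-2 were at 0 in both libraries, but their mature sequences occur at more than 1 locus and shared reads were not counted. The part of these measures in the Mir322 difference was not tested. In bulk tissue, fewer cells of a type and less RNA per cell cannot be told apart.

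By library total, the sums of the other marker lists were lower in replicate 2, except the neural sum, which was higher through Mir137 alone. The Hox-embedded genes that fit the limb label (5 of 5 detected, led by Mir10b) summed to 181850 and 166542 CPM, but 3 of the 5 (Mir196a-1, Mir196a-2 and Mir196b) were higher in replicate 2 and Mir10a and Mir10b were lower. The epithelial list (7 of 7 detected, led by Mir205) had 12334 and 10775 CPM. Its gene Mir203 alone was higher in replicate 2 (1185 and 1886 CPM). The endothelial gene Mir126a had 26707 and 23683 CPM. Erythroid genes (3 of 3, led by Mir451a) had 480 and 269 CPM, and leukocyte genes (2 of 3, led by Mir155) had 731 and 611 CPM. Neural genes (3 of 8, led by Mir137) had 157 and 175 CPM, and without Mir137 78.2 and 51.7 CPM. In that list Mir124a-1, Mir124a-2 and Mir124a-3 were at 0, but they share a mature sequence, so these zeros set no limit on it. The liver pair Mir122 and Mir192 had 84.0 and 52.6 CPM together. With TMM factors the log2 ratios of the Hox, epithelial, endothelial and leukocyte lists turned from negative to positive (0.16, 0.09, 0.12 and 0.03), so their direction depends on the scaling. Their part in the Mir322 difference was not tested either.

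Mir322 was also the leading gene of its seed family. The lines below give 5' arms of the family for comparison with miR-322-5p, seed in capitals.
miR-15a-5p: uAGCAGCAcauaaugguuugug
miR-16-5p: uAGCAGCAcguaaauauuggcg
miR-195a-5p: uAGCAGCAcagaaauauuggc
Outside the seed they differ from miR-322-5p. Of 22 aligned bases, 15 are identical in miR-15a-5p and 12 in miR-16-5p. Mir322 and Mir503 together made up 85.0% (84.8 to 85.2) of the counts of the 7 family genes analysed in replicate 1 and 89.4% (89.3 to 89.6) in replicate 2. Mir322 was 12.4-fold and 21.2-fold above Mir15a, the next gene, which had 2849 and 2519 CPM. Mir503 (1294 and 1491 CPM) lay between Mir15b (1285 and 1062 CPM) and Mir16-1 (1626 and 2058 CPM). Mir16-1 and Mir16-2 share miR-16-5p, so their counts are uncertain in the same way as those of the miR-450a genes. The share of Mir322 may be overstated for that reason, and the place of Mir15a as the next gene is uncertain. Mir497 was not analysed here. Mir497b lies opposite it and held 1577 and 2009 antisense counts, and with those added as Mir497 the mean share of Mir322 and Mir503 went from 87.2% to 86.4%.

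The family genes did not differ between the libraries as one. The log2 ratios were 0.47 (0.36 to 0.58) for Mir195a and 0.34 (0.29 to 0.39) for Mir16-1, next to 0.60 for Mir322. They were -0.18 (-0.22 to -0.14) for Mir15a and -0.27 (-0.34 to -0.21) for Mir15b, both of which turned positive with TMM factors (0.11 and 0.016).

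Mir351 met its family on nearer terms. Its seed is also that of the following arms.
miR-125a-5p: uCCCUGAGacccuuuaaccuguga
miR-125b-5p: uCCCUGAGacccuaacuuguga
Beyond the seed miR-351-5p is unlike them, with 10 of 24 aligned bases identical to miR-125a-5p. Mir351 made up 55.5% (55.0 to 56.0) of the counts of the 4 genes in replicate 1 and 50.0% (49.5 to 50.6) in replicate 2. It was 1.56-fold and 1.55-fold above Mir125a (3402 and 2818 CPM), a ratio that hardly moved, and the log2 ratio between libraries was -0.27 for Mir125a next to -0.28 for Mir351 (0.018 and 0.011 with TMM factors). Mir125b-1 (688 and 1294 CPM) and Mir125b-2 (165 and 262 CPM) were higher in replicate 2. Both encode miR-125b-5p, so their counts are uncertain and may be too low, and the share of Mir351 may be overstated. A share that leaves them out was 60.9%, which sets no bound on that error.

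**Figure D3:**
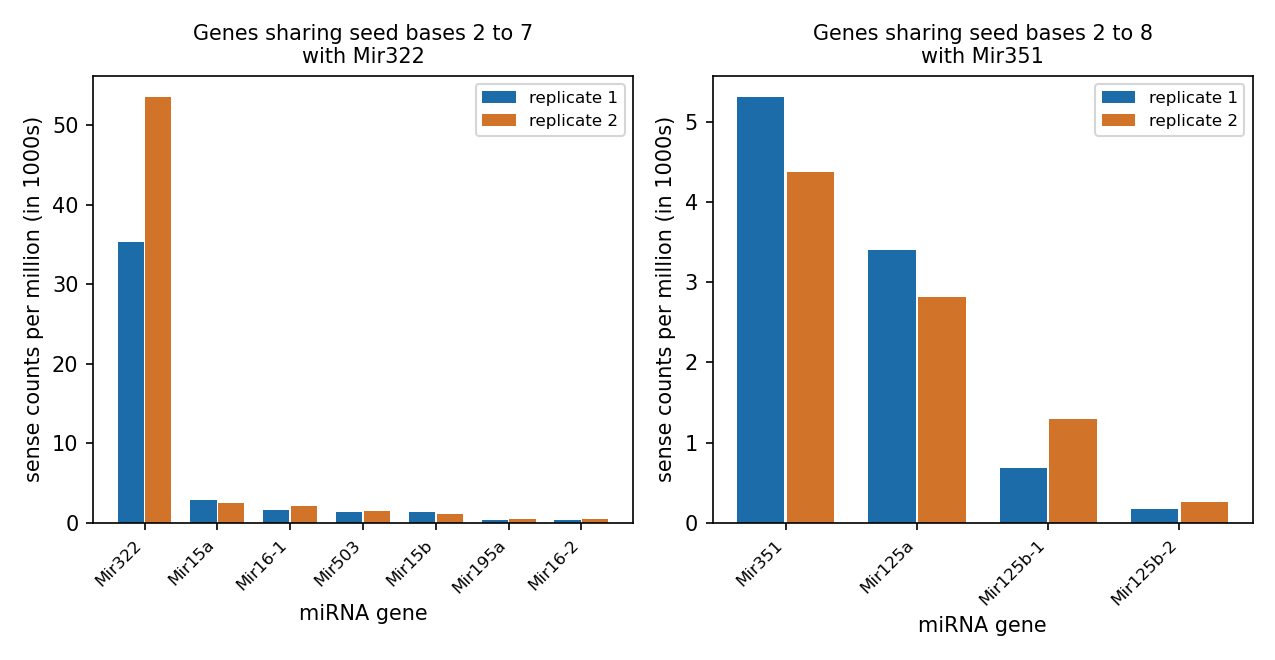
Sense CPM (axis in units of 1000) in each library of the 7 family genes analysed for Mir322 (left) and the 4 for Mir351 (right). They share seed bases 2 to 7 with Mir322 or bases 2 to 8 with Mir351, and not every gene with these seeds is shown. Bars start at 0 and each is 1 library. Mir322 stands at 35302 and 53519 CPM over relatives counted at or below 2849 CPM, while Mir351 is within 1.56-fold of Mir125a. Bars of Mir16-1, Mir16-2, Mir125b-1 and Mir125b-2 may be too low, since their shared reads were not counted.

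Set beside other polycistronic clusters, the Mir322-Mir503 cluster had the widest spread of the 4 described here only with its multi-copy genes counted. From highest to lowest gene it covered 11.6 and 12.3 log2 units in replicates 1 and 2, a mean of 11.9 ± 0.45 (SD, n = 2). The growth-associated Mir17-Mir92 cluster, led by Mir17, covered 9.55 and 10.96. The Mir106a-Mir363 cluster of chromosome X, led by Mir106a, covered 7.67 and 7.57, and the Mir183-Mir182 cluster of sensory organs, led by Mir182, 1.92 and 2.12. Without Mir450-1 and Mir450-2 the value fell to a mean of 6.44. The lowest genes of the Mir17-Mir92 and Mir106a-Mir363 clusters, Mir19b-1 and Mir19b-2, are multi-copy genes too. With Mir19b-1 left out, the Mir17-Mir92 cluster still ran from Mir17 (86997 and 93602 CPM) down to Mir19a (200 and 138 CPM). That range is wider than 6.44 log2 units, so the ranking did not hold without multi-copy genes. The leading gene held 81.4% and 87.8% of the counts of the Mir322-Mir503 cluster, against 61.6% and 65.5% for Mir17, 41.4% and 50.5% for Mir106a and 48.2% and 55.3% for Mir182. These are descriptions of 4 clusters, with no test.

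Unequal differences between the libraries among neighbours were found in the other clusters as well. Over genes averaging 100 counts or more, the log2 ratios ran over 1.15 from the lowest to the highest member of the Mir322-Mir503 cluster. They ran over 1.42 in the Mir17-Mir92 cluster, 1.38 in the Mir106a-Mir363 cluster and 0.48 in the Mir183-Mir182 cluster. The counts of Mir450-1, Mir19b-1, Mir92-1 and Mir92-2, which are multi-copy genes, are uncertain. Without them the Mir322-Mir503 cluster ran from -0.28 (Mir351) to 0.60 (Mir322). The Mir17-Mir92 cluster then ran from -0.54 (Mir19a) to 0.12 (Mir20a), and the Mir106a-Mir363 cluster from -1.06 (Mir363) to -0.26 (Mir106a). The order of the ranges therefore depends on multi-copy genes.

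**Figure D4:**
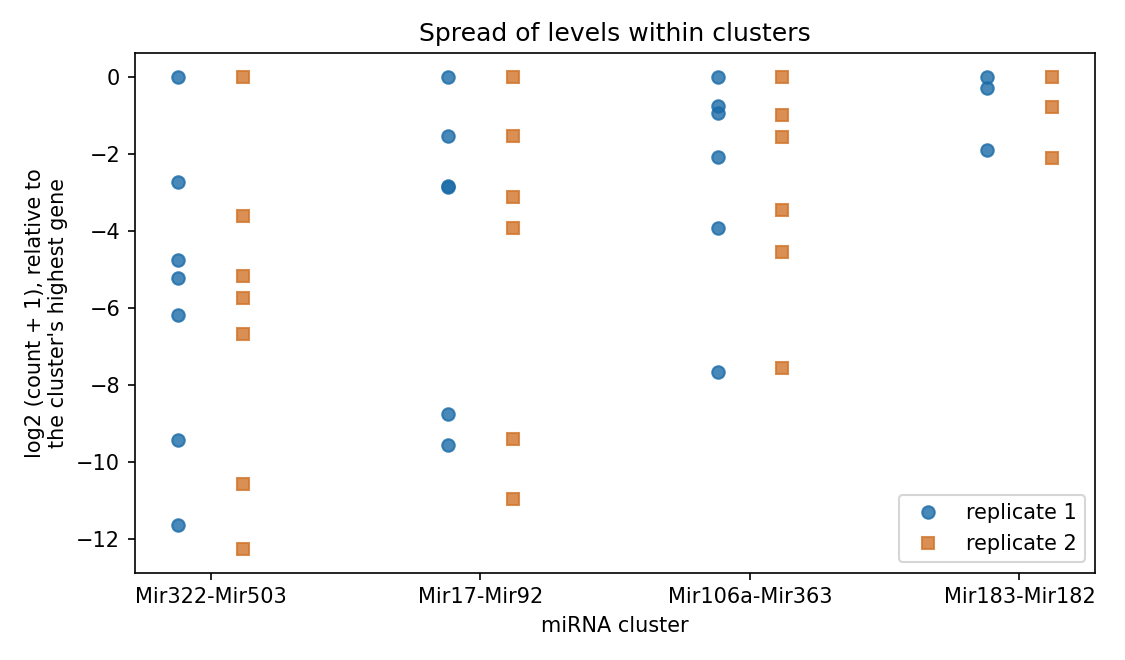
Log2 (count + 1) of each gene relative to the highest gene of its cluster, for 4 polycistronic clusters. Circles are replicate 1 and squares replicate 2. The Mir322-Mir503 genes reach 11.6 and 12.3 units below Mir322, and no other gene of that cluster comes nearer than 2.73 units.

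The genes closest in level to each member over the 2 libraries (Euclidean distance of log2 CPM, over genes averaging 100 counts or more) were not its neighbours on the transcript. Mir322 had no close match, the nearest being Mir10a at a distance of 0.69, followed by Mir20a and Mir196b. Mir351 was matched within 0.04 by Mir23a and within 0.07 by Mir296, then Mir205. The nearest to Mir503 were Mir27b at 0.09, Mir484 and Mir188, and to Mir542 Mir134 at 0.10, Mir375 and Mir708. Mir339 at 0.09, Mir148a and Mir671 were nearest to Mir450b, and Mir1955 at 0.27, Mir672 and Mir6240 to Mir450-1. Mir450-2 lay below the depth limit, and its nearest gene, Mir26a-2, was 1.96 away, followed by Mir208b and Mir7689. With 2 libraries such a distance describes level and little else.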

How the data were processed

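Per the deposited readme texts, reads were aligned to mm10 and counted over GENCODE M4, 1 alignment per library. Aligner, counter and trimming: not given in the sources used here. The authors deposited raw read counts per miRNA gene in 3 columns, which from the values hold both strands, sense and antisense. The arms of a hairpin are not separated. CPM were computed from sense counts without the 4 rows of reads given to no gene. Reads totalled 10064833 and 7218612, and a count of 0 allows 0.838 and 0.839 CPM (3 counts). Identifiers were matched to GENCODE M21 of GRCm38, the build of mm10 (1894 of 1973), and sequences came from RefSeq (GRCm38.p6).

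Log2 values between libraries carry a prior count of 1, and intervals are 95% exact binomial. No test was run, as 1 group of 2 libraries holds no contrast. Members and lists were chosen with earlier results of these data known. Genes named were the members, the seed families, the 3 genes nearest in level to each member and the annotated host. The leading gene of each list and cluster was named too, as was Gm28730 for its place in the cluster. Others (Mir206, Mir133b, Mir137, Mir10a, Mir196a-1, Mir196a-2, Mir196b, Mir122, the list genes at 0, Mir497b, Mir19b-1 and Mir19b-2) were named after their values were seen. So were Mir19a, Mir92-1, Mir92-2, Mir363, Mir22 and Mir203. Alternatives were edgeR TMM and DESeq2 scaling, mapped reads as denominator, both strands, count filter, prior count, multi-copy genes and single libraries. Tools were Python 3.11.15 with scipy 1.17.1 and pandas 2.3.3, RNAfold 2.7.2, and in R 4.3.3 the packages DESeq2 1.42.0 and edgeR 4.0.16. The ratio and interval computations were tested on simulated data.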

Additional observations from a re-analysis of the deposited data

How the results depend on the processing

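The log2 ratio of the whole cluster between libraries was 0.49 by library total, 0.78 with TMM factors, 0.77 with DESeq2 size factors and 0.70 per mapped read. Without Mir322 it reversed to -0.12 by library total, and was 0.17 with TMM factors, 0.15 with DESeq2 size factors and 0.090 per mapped read, combinations chosen after seeing the data. Mir351 moved from -0.28 to 0.011 with TMM factors, and Mir450-2 from -0.03 to 0.25 with TMM factors, 0.24 with DESeq2 size factors and 0.18 per mapped read, which follows from the shift these scalings make in all genes. The cluster share went from 5.22% to 2.995% with all mapped reads as denominator, by construction. Leaving out the multi-copy genes took the Mir322 and Mir503 share of their family from 87.2% to 91.1%, the Mir351 share of its family from 52.8% to 60.9% and the spread of levels from 11.9 to 6.44. Both family shares rise further that way, and reads lost to multiple placement are not restored. Single libraries gave 4.34% to 6.09% for the cluster share, 81.4% to 87.8% for Mir322 in the cluster, 85.0% to 89.4% and 50.0% to 55.5% for the family shares, and 11.6 to 12.3 for the spread. No member passed 2-fold under any of the 6 alternatives tried for that count, while the calls over all genes went from 3 higher and 24 lower to 6 higher and 14 lower with TMM factors and with DESeq2 size factors. No paired analysis was possible because there is 1 group. The depth limits Mir450-2, at 39 and 38 counts, most.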

Other observations

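The cluster dominated the miRNA counts of its chromosome. It held 59.3% of the sense counts in the 120 chromosome X genes in replicate 1 and 72.9% in replicate 2. The other 25 chromosome X genes averaging 100 counts or more had a median log2 ratio between the libraries of -0.34 (-0.05 with TMM factors), and 7 of them were above 0, against 83 of the 250 genes of that depth on all chromosomes. Both pools mixed male and female embryos in proportions that were not measured, and their part in these values was not tested.

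The hairpins differ in base composition along the transcript, here for the 6 members other than Mir351 (of 7). GC content was 51.6% in Mir322, 54.9% in Mir503 and 51.8% in Mir542, and 36.2%, 33.0% and 30.5% in Mir450-2, Mir450-1 and Mir450b. The predicted minimum free energy per base (RNAfold) was lowest of the 6, hence most stable, in Mir503 at -0.530 kcal/mol, with 11.1% of the 1005 RefSeq hairpins more stable, and -0.452 kcal/mol in Mir322, the member with the highest count. Mir450-2 had the highest value at -0.384 kcal/mol, close to Mir450b at -0.388 kcal/mol, which had far more counts. Across these 6 hairpins the order of predicted stability was not the order of counts.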
